A study of Mus musculus with 10 samples.

Results

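Immediate early genes are a set of 10 genes here, chosen by name as Fos, Fosb, Jun, Junb, Jund, Egr1, Atf3, Ier2, Nr4a1 and Btg2, out of 18193 genes that have a probe set naming them alone. The 10 genes, and the other gene lists below, were chosen with earlier results of these data known. A total of 13 probe sets named exactly 1 of these genes, with 2 probe sets each for Jun, Jund and Btg2 and 1 for each of the other 7 genes. RNA was taken from whole gastrocnemius, a calf muscle, of 5 D257A mice and 5 WT mice, all males of 13 months, with 1 Affymetrix Mouse Genome 430 2.0 array per mouse. D257A mice carry PolgD257A/D257A, a knock-in in the mitochondrial DNA polymerase that removes its proofreading in every tissue, and WT mice are Polg+/+. Both genotypes came from a mixed background that had been backcrossed into C57Bl/6J. Muscles were dissected and frozen at once, and no source used here gives the time from death to freezing. The labels' extraction note names cochlea, while the muscle fibre markers given at the end were bright in every mouse. WT mouse 1-13M touches many results: without it, calls over all tested probe sets went from 1662 to 3439.

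Immediate early genes are those that a cell transcribes within minutes of a stimulus, without first making new protein. Kinase cascades reach them through factors already sitting on their promoters, such as SRF with its ternary complex partners and CREB, and their messages are short-lived. Fos, Fosb, Jun, Junb and Jund encode subunits of AP-1, a dimeric transcription factor, and in skeletal muscle these genes are known to respond to contraction, stretch, injury and stress. Because the samples are whole muscle, fewer cells of a type and less RNA per cell cannot be told apart in any value below.

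No immediate early gene passed the test for a difference between D257A and WT mice. Of the 13 probe sets, 11 were bright enough to be tested, covering 9 of the 10 genes, and 0 of these 11 reached an adjusted p under 0.05 with limma, where 7.38% of all 22518 tested probe sets did (3.64% higher and 3.74% lower in D257A mice). Counted by gene, with the brightest probe set of each, 0 of 9 passed beside 7.23% of all 11216 tested genes. At an unadjusted p under 0.05 the count was 1 of 11, that of Egr1, beside 23.6% of all tested probe sets and 22.8% of genes. The genotypes overlapped on all 13 probe sets, while 7.71% of tested probe sets and 7.40% of tested genes showed no overlap. The methods' t-test, run on the same values, also called 0 of the 9 genes.

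The core of the cAMP response element, the site of CREB, was present in most of the promoters at hand. CREB is among the factors that act on genes of this class, so its site is no independent find in genes chosen by name. The shares of all genes given for comparison were not matched for base content. RefSeq promoter windows of the GRCm38.p6 build, from 250 bases before to 50 bases after the start of transcription, were at hand for 8 of the 10 genes. The core of the cAMP response element, TGACG on either strand, was present in 6 of these 8 windows, those of Fos, Fosb, Junb, Atf3, Nr4a1 and Btg2, and in 23.0% of the windows of all 27025 genes. The full palindrome TGACGTCA, which contains that core on both strands, was present in 1 of 8, in Btg2, and in 2.03% of all genes. The CArG box bound by SRF (0 of 8, 1.81% of all genes), the AP-1 motif TGANTCA (0 of 8, 8.97%) and the Egr1 motif GCGTGGGCG (0 of 8, 0.707%) were not among the letters of these windows. Sites farther from the start lay outside the windows, and Egr1 and Ier2 had no window. The TATA motif TATAAA was in 2 of 8 (15.7%), those of Fos and Junb. The Junb match did not lie within the 250 bases before the start. The 250 bases before the start are shown for Fos, for Nr4a1, which had the most matches, and for Btg2, the gene with the full palindrome. They run 5′ to 3′ on the strand of the gene, with capitals marking TGACG or its reverse complement CGTCA and, in Fos, TATAAA.
Fos, chr12:85473640-85473889, plus strand: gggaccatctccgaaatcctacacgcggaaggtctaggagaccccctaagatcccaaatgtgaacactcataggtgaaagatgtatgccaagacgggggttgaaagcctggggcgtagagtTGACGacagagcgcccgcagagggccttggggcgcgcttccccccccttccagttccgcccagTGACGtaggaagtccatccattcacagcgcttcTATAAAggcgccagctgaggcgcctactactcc
Nr4a1, chr15:101266596-101266845, plus strand: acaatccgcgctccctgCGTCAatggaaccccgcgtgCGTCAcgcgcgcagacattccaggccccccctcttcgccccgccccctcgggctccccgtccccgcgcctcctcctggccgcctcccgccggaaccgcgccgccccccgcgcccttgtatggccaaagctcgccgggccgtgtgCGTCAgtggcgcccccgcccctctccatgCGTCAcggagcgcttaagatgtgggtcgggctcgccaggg
Btg2, chr1:134079156-134079405, minus strand: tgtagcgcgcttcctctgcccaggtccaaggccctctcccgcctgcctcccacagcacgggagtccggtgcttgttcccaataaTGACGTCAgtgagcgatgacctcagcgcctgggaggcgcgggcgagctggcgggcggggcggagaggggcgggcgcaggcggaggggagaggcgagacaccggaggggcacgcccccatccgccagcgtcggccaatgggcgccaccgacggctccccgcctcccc
Counted from the start of transcription, the core began at -129 and -66 in Fos, with TATAAA at -33. In Nr4a1 it began at -233, -213, -69 and -40. In Btg2 the palindrome gave matches at -166 and -163. In Fosb it began at -60, in Junb at -106 and in Atf3 at -7. A match describes letters in the window and is not evidence that a factor was bound in these muscles.

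All signals below are linear array signals scaled so that the trimmed mean of each array is 500, and a log2 fold change is the D257A mean less the WT mean, with its standard error (SE) and 95% interval from limma. Signals of different probe sets depend on the probes and are compared only between mice.

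Egr1, a zinc finger transcription factor induced by growth factors and stretch, showed the largest difference among the 9 tested genes. Its signal in D257A mice was 1014 in 2-17M, 556 in 2-21M, 783 in 2-25M, 961 in 2-27M and 699 in 2-30M. In WT mice it was 509 in 1-12M, 487 in 1-13M, 298 in 2-3M, 465 in 2-32M and 905 in 3-18M. Every D257A mouse lay above 4 of the 5 WT mice, and WT mouse 3-18M lay within the D257A range. The means were 802 ± 188 for D257A and 533 ± 224 for WT (SD, n = 5 each), a log2 fold change of 0.65 (SE 0.25, 95% interval 0.11 to 1.19). The difference did not pass (limma unadjusted p = 0.021, adjusted p = 0.131), and by the 2-sided exact permutation test over mice p = 0.0714, where the smallest possible is 0.00794. It passed without WT mouse 3-18M (log2 fold change 0.86, adjusted p = 0.0262), with array weights (0.82, adjusted p = 0.021), among the mice whose number starts with 2 (1.07, adjusted p = 0.0247) and with that leading digit as a block (1.07, adjusted p = 0.0464). All 5 D257A mice carry the digit 2 but only 2 WT mice do, 2-3M and 2-32M, which had the lowest Egr1 signals, so the last 2 settings give 1 estimate that rests on those WT mice. In the other 17 alternatives the adjusted p of limma or of the methods' t-test ran from 0.0769 to 0.281, and the sign was positive in all 21.

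Fos, the partner that gives AP-1 much of its inducibility, varied more between mice than between genotypes. In D257A mice its signal was 316 in 2-17M, 231 in 2-21M, 469 in 2-25M, 538 in 2-27M and 367 in 2-30M. In WT mice it was 567 in 1-12M, 578 in 1-13M, 254 in 2-3M, 452 in 2-32M and 660.0 in 3-18M. In all, 3 of the 5 WT mice lay above every D257A mouse, and the other WT mice lay within the D257A range. The means were 384 ± 122 for D257A and 502 ± 157 for WT (SD, n = 5 each), a log2 fold change of -0.38 (SE 0.27, 95% interval -0.95 to 0.20, limma adjusted p = 0.431). Among the mice whose number starts with 2 alone, the sign turned (0.12).
Fosb, a close relative of Fos, was too dim to be tested, with signals of 5.11 to 41.3 in D257A mice and 6.01 to 36.8 in WT mice. Without the filter its log2 fold change was 0.10, with a 95% interval of -1.38 to 1.59, so that the interval spans folds from 0.383 to 3.01.

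The Jun family, which can pair with Fos proteins or with each other, gave no difference past the test. The brighter Jun probe set read 6016 in 2-17M, 4321 in 2-21M, 3683 in 2-25M, 3491 in 2-27M and 4130.2 in 2-30M among D257A mice. Among WT mice it read 3890.3 in 1-12M, 6322 in 1-13M, 3530.0 in 2-3M, 4864 in 2-32M and 3306 in 3-18M. The highest mouse of each genotype, 2-17M and 1-13M, stood apart at 6016 and 6322, and the others lay between 3306 and 4864. The log2 fold change was -0.003 (SE 0.18, 95% interval -0.40 to 0.39, limma adjusted p = 0.994), and 0.07 (SE 0.16) on the dimmer Jun probe set. The Jun probe sets ranked the mice alike, with a Pearson r of 0.938 (permutation p = 5e-05, adjusted p = 1.5e-04 over the 3 pairs) and a Spearman rho of 0.939 (permutation p = 2.3e-04), and r = 0.925 without the 2 mice farthest from the median (exact permutation p = 0.00126).
Jund, the AP-1 subunit least dependent on a stimulus, varied least between mice. Its brighter probe set lay between 1217 and 1362 in D257A mice, with 1305 as the median, and between 1150.2 and 1616 in WT mice, with 1502 as the median. Its log2 fold change was -0.16 (SE 0.12, 95% interval -0.41 to 0.10, limma adjusted p = 0.457), and its dimmer probe set, at 7.29 to 48.2 over all mice, was not tested. Junb, which is often induced together with Fos, lay between 79.6 and 181 in D257A mice and between 98.9 and 210.2 in WT mice, with medians of 114 and 118. Its log2 fold change was -0.19 (SE 0.27, 95% interval -0.78 to 0.39, limma adjusted p = 0.720).

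**Figure D1:**
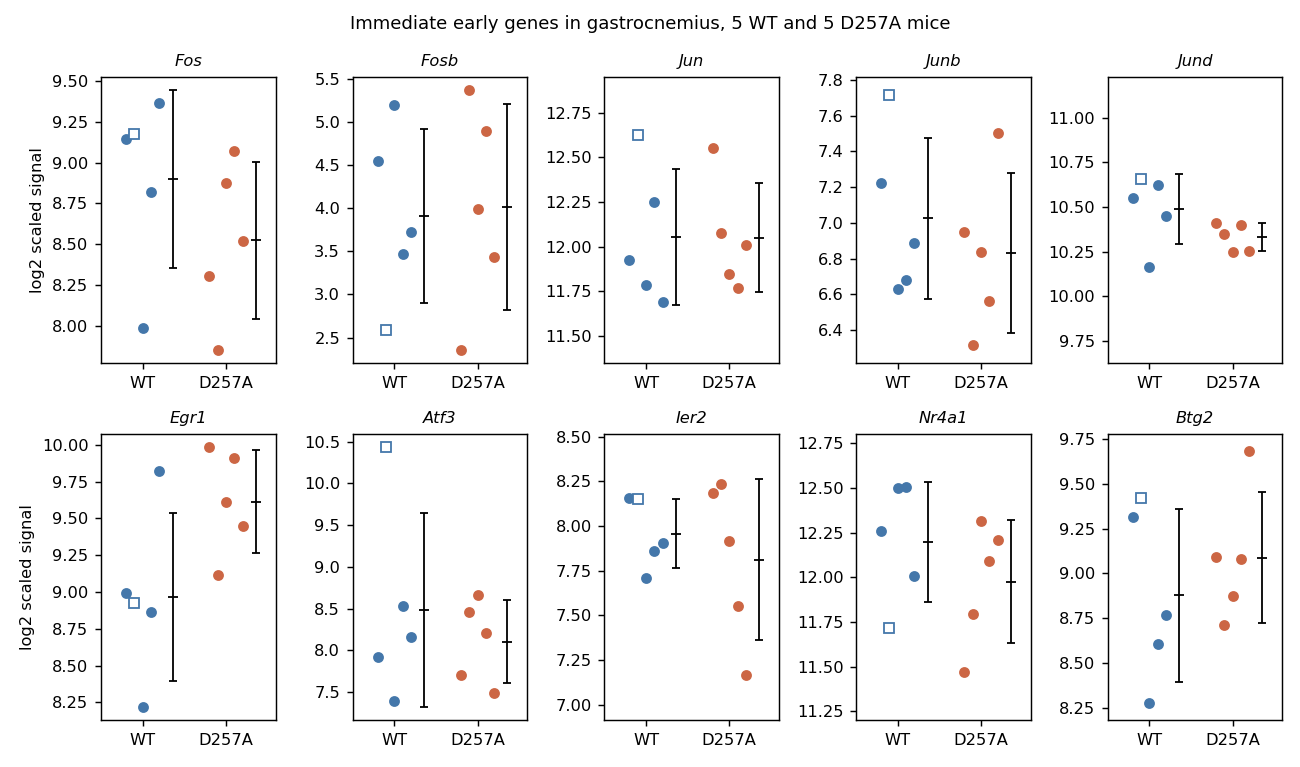
Log2 scaled signal (y axis) of the brightest probe set of each of the 10 immediate early genes in the 5 mice of each genotype (points), beside the genotype mean with its SD as a bar. An open square marks 1-13M. The genotypes overlap in every panel, and Egr1 has the largest difference between means among tested genes (0.65).

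Nr4a1, an orphan nuclear receptor induced by adrenergic signalling and exercise in muscle, read 2835 in 2-17M, 3548 in 2-21M, 5088 in 2-25M, 4368 in 2-27M and 4738 in 2-30M among D257A mice. Among WT mice it read 4907 in 1-12M, 3370.0 in 1-13M, 5803 in 2-3M, 5806 in 2-32M and 4125 in 3-18M. The 2 highest mice were WT mice and the lowest was a D257A mouse, with the rest interleaved. The log2 fold change was -0.22 (SE 0.18, 95% interval -0.61 to 0.17, limma adjusted p = 0.494), and its sign was negative in all 21 alternatives, none of which gave a call.
Ier2, a short nuclear protein of little known function, lay between 144 and 301 in D257A mice and between 209 and 285 in WT mice, with medians of 241 and 239.5. Its log2 fold change was -0.15 (SE 0.21, 95% interval -0.59 to 0.30, limma adjusted p = 0.727).
Atf3, a stress-induced bZIP factor that is also a target of p53 and of ATF4, was dominated by 1 mouse. Its signal was 208 in 2-17M, 352 in 2-21M, 405 in 2-25M, 296 in 2-27M and 179 in 2-30M among D257A mice. In WT mice it was 242 in 1-12M, 1387 in 1-13M, 169 in 2-3M, 369 in 2-32M and 285 in 3-18M. WT mouse 1-13M stood far above the other 9 mice, which lay between 169 and 405. The log2 fold change was -0.38 (SE 0.44, 95% interval -1.34 to 0.57, limma adjusted p = 0.652), and 0.11 without that mouse.
Btg2, an antiproliferative gene induced by p53 and by growth factors, gave estimates of opposite sign on its probe sets, neither past the test. The brighter one read 546 in 2-17M, 419.5 in 2-21M, 469 in 2-25M, 542 in 2-27M and 823 in 2-30M among D257A mice. The WT mice read 638 in 1-12M, 686 in 1-13M, 310.2 in 2-3M, 389.8 in 2-32M and 436 in 3-18M. D257A mouse 2-30M was the highest of all and WT mouse 2-3M the lowest. Its log2 fold change was 0.21 (SE 0.23, 95% interval -0.29 to 0.71, limma adjusted p = 0.630). The dimmer one lay between 216 and 379 in D257A mice and between 209 and 1033 in WT mice, again with WT mouse 1-13M at the top, at a log2 fold change of -0.50 (SE 0.33, limma adjusted p = 0.387). Pearson r between them was 0.376 (permutation p = 0.289, adjusted p = 0.433) and Spearman rho was 0.455 (permutation p = 0.193), with r = 0.559 without the 2 mice farthest from the median (exact permutation p = 0.15).

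**Figure D2:**
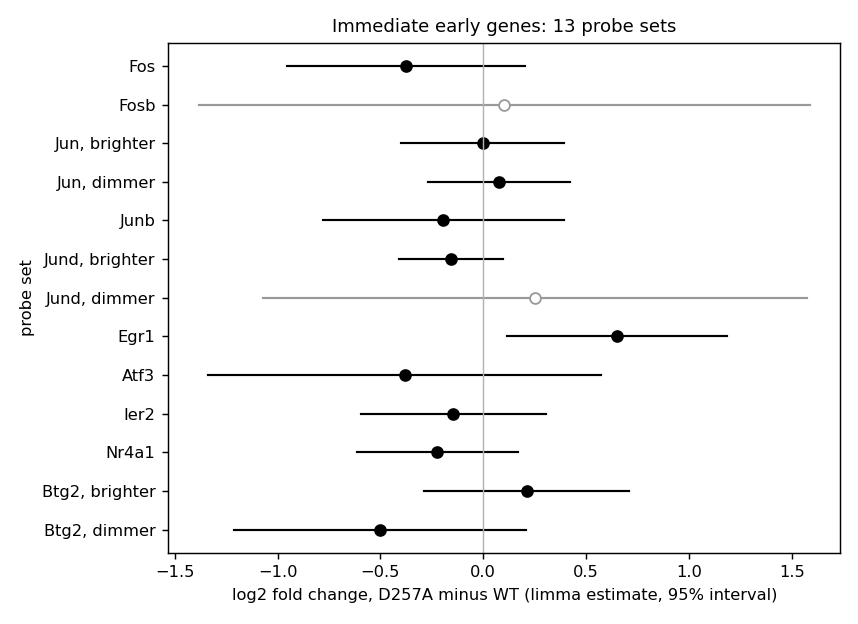
Log2 fold change of D257A minus WT (x axis) with limma's 95% interval for the 13 probe sets (y axis); filled points were tested and open grey points were too dim for the test and come from the fit without the filter. The interval of Egr1 lies above 0 before adjustment over all probe sets, from 0.11 to 1.19, and all the others hold 0.

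Across the 9 tested genes, each by its brightest probe set, 7 estimates were negative, among them Jun at -0.003, and 2 were positive. The median log2 fold change of the 9 was -0.16, beside -0.01 for all 11216 tested genes. With each array centred on its median, which moves the median of all tested probe sets from -0.03 to 0.10, the estimate for Jun also became positive (0.13). The spread between mice of 1 genotype was above the median of all tested probe sets (0.29, SD of log2 signal) in 8 of the 9 genes. It was widest for Atf3 (0.90, above 98.1% of tested probe sets), followed by Fos (0.51, above 87.7%) and Egr1 (0.47, above 84.4%), and narrowest for Jund (0.15, above 9.27%). Among the 1000 tested probe sets closest in mean signal, the spread of Atf3 was above 99.4%, that of Egr1 above 95.1% and that of Fos above 93.6%.

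Single mice stood out over several of these genes. WT mouse 1-13M had the highest signal of the 10 mice for Jun, Junb, Jund and Atf3, 4 of the 9 genes. WT mouse 2-3M had the lowest for Jund, Egr1, Atf3 and Btg2, also 4 of the 9. The D257A mice held the highest signal for Egr1 (2-17M), Ier2 (2-21M) and Btg2 (2-30M). Mean standardized levels over the 9 genes ran from -0.92 SD in 2-3M to 0.95 SD in 1-13M, both WT mice, and from -0.44 to 0.08 SD among D257A mice, so the WT range enclosed all D257A mice. Without WT mouse 1-13M the test called 0 of the 9 genes.

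**Figure D3:**
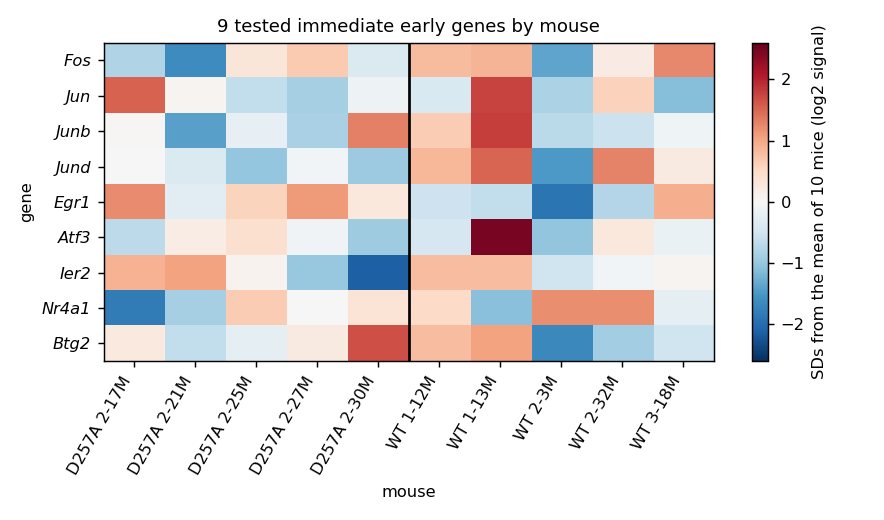
Log2 signal of the 9 tested immediate early genes (rows) in each mouse (columns, D257A on the left and WT on the right), in SDs from the mean of all 10 mice. The row of Atf3 peaks in WT mouse 1-13M, and WT mouse 2-3M is the lowest for 4 genes.

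No gene followed Fos across mice closely enough to pass. The log2 signal of Fos was correlated across the 10 mice with that of each of the other 9 genes, a family of 9 relations, and none passed. The closest was Jund, with Pearson r = 0.589 (permutation p = 0.0754, adjusted p = 0.531) and Spearman rho = 0.60 (permutation p = 0.0727, adjusted p = 0.654), and r = 0.425 without the 2 mice farthest from the median of Fos (exact permutation p = 0.293). With genotype means removed, Fos and Egr1 had r = 0.767 (exact permutation p = 0.026, adjusted p = 0.234), at 0.609 within D257A mice and 0.870 within WT mice. Before the means were removed that relation was r = 0.333 (permutation p = 0.346, adjusted p = 0.531) and rho = 0.152 (permutation p = 0.683, adjusted p = 0.811). Without the 2 mice farthest from the median of Fos, 2-21M and 2-3M, it was r = -0.245 (exact permutation p = 0.548), and 0.361 with genotype means removed. Of the 36 pairs among the 9 genes, 23 had an r above 0 with genotype means removed, at a median of 0.28, as a description of 10 mice in which all genes of a mouse share 1 array and 1 RNA sample. Nr4a1 ran against the rest, at r = -0.49 with the mean of the 9 genes, which includes Nr4a1 itself.
The genes outside the set whose pattern was most like the mean of the 9, among 11207 tested, were Ino80e (r = 0.957), Plcd1 (0.936), Gm8273 (0.926), Zfp113 (0.925) and Cdc27 (0.924), over 10 mice with genotype means removed. These are the highest of many values from few mice and are given as a description. None of these 5 passed the test between genotypes (limma adjusted p 0.265 to 0.926).

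Of 19 other immediate early transcription factors listed, 14 were tested: 4 rose, 1 fell and 9 did not pass (3.71% of all 11216 tested genes rose and 3.52% fell), with a median log2 fold change of 0.31 beside -0.01 for all genes. Because this list and those below were chosen with earlier results of these data known, their counts and medians are descriptions and test no list against all genes. Klf10, a Krüppel-like factor induced by TGF-beta, read 4559 in 2-17M, 2202 in 2-21M, 3865 in 2-25M, 2470.2 in 2-27M and 4715 in 2-30M among D257A mice. The WT mice read 847 in 1-12M, 1630.1 in 1-13M, 438 in 2-3M, 1198 in 2-32M and 709 in 3-18M. Every D257A mouse lay above every WT mouse, at 3562 against 965 on average, a log2 fold change of 1.96 (SE 0.31, limma adjusted p = 0.00278) that passed in all 21 alternatives.
Klf6, a relative of Klf10 that responds to injury and growth factors, lay between 1568 and 2512 in D257A mice and between 820.5 and 1480.0 in WT mice, with no overlap. Its log2 fold change was 0.85 (SE 0.16, limma adjusted p = 0.00741), and of 21 alternatives the call ended in 1, the block on the leading digit (adjusted p = 0.0688). Of 4 dimmer Klf6 probe sets, 1 also rose (0.82, adjusted p = 0.0194), and the others gave 0.53 to 0.78. Fosl2, a Fos relative that joins AP-1 later than Fos, read 1211 in 2-17M, 529 in 2-21M, 644 in 2-25M, 594 in 2-27M and 802 in 2-30M among D257A mice. The WT mice read 278 in 1-12M, 431 in 1-13M, 355 in 2-3M, 344 in 2-32M and 427 in 3-18M. The genotypes did not overlap, and the log2 fold change was 1.00 (SE 0.21, limma adjusted p = 0.0126). The call ended with the methods' t-test (adjusted p = 0.0597) and with that block (adjusted p = 0.0796), and a dimmer Fosl2 probe set gave 0.33 (limma adjusted p = 0.569).
Myc, a growth-promoting factor, lay between 270.1 and 768 in D257A mice and between 81.3 and 357 in WT mice, where WT mouse 1-13M was the only WT mouse within the D257A range. Its log2 fold change was 1.46 (SE 0.36, limma adjusted p = 0.0274). Leaving out any 1 of the D257A mice 2-17M, 2-25M and 2-30M and the WT mice 1-12M, 2-3M and 3-18M ended the call for Myc (adjusted p 0.054 to 0.0705). Hes1, a repressor downstream of Notch, lay between 119 and 236 in D257A mice and between 279.6 and 354 in WT mice, with no overlap, at a log2 fold change of -0.75 (SE 0.19, limma adjusted p = 0.0288). That call was lost when 1-12M, 2-3M or 2-32M, all WT, was left out (adjusted p 0.0668 to 0.0756). Among tested factors of this list closest to the 10 genes, Nr4a3, a relative of Nr4a1, had a log2 fold change of 1.15 (limma adjusted p = 0.164), Nr4a2 had -0.10 (0.885) and Egr3 had 0.11 (0.845). Their relatives Egr4, Egr2 and Fosl1 were too dim to be tested, and are named after their values were seen. Without the filter Egr4 had -1.17 (limma adjusted p = 0.207), Egr2 0.08 and Fosl1 0.53. Egr4 read 19.0 to 69.4 in D257A mice and 72.3 to 158 in WT mice, with no overlap. With 1-13M left out, 5 of 14 rose and 1 fell, in a fit where 7.35% of all tested probe sets rose and 7.92% fell, so the counts without this mouse given for each list stand beside those shares and not the lower ones of all 10 mice.

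**Figure D4:**
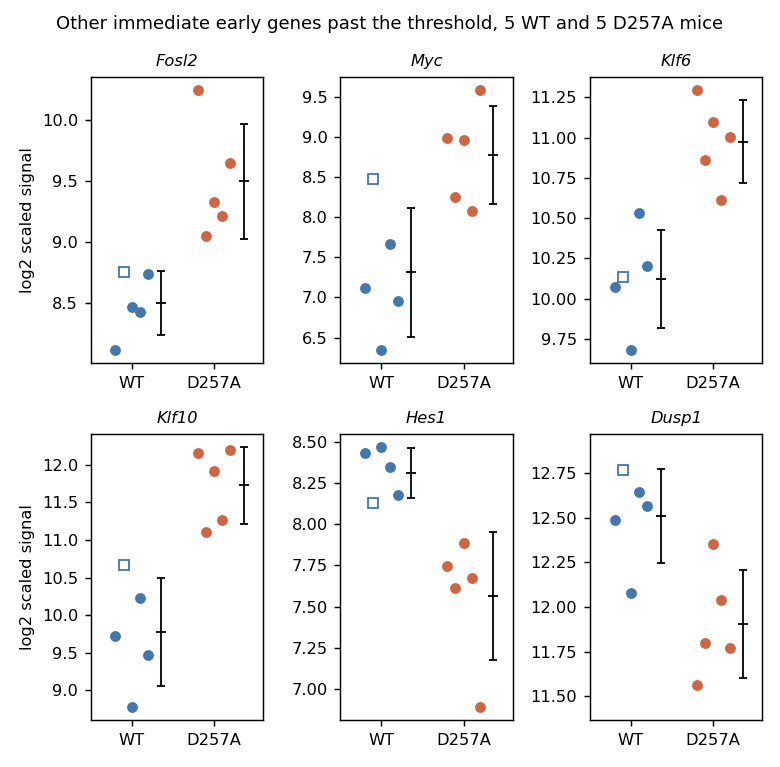
Log2 scaled signal (y axis) of the 6 other immediate early genes past the threshold in the 5 mice of each genotype (points), beside the genotype mean with its SD as a bar. An open square marks 1-13M. The genotypes do not overlap for Fosl2, Klf6, Klf10 and Hes1.

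Of 32 immediate early genes that do not encode transcription factors, 28 were tested, and 0 rose and 1 fell, beside 3.71% and 3.52% of all tested genes, with a median log2 fold change of 0.13. A fall in 1 of 28 is near that background. The gene that fell was Dusp1, a phosphatase that switches off the MAP kinases. Dusp1 read 3032 in 2-17M, 3559 in 2-21M, 5227 in 2-25M, 4210.2 in 2-27M and 3499 in 2-30M among D257A mice. WT mice read 5742 in 1-12M, 6979 in 1-13M, 4328 in 2-3M, 6394 in 2-32M and 6065 in 3-18M. D257A mouse 2-25M overlapped the WT range, and the log2 fold change was -0.60 (SE 0.16, limma adjusted p = 0.0327). The call for Dusp1 ended in 14 of 21 alternatives, among them the loss of any 1 of 2-17M, 2-21M and 2-30M from D257A and of 1-12M, 2-32M and 3-18M from WT (adjusted p 0.0537 to 0.0875). Zfp36l1, which speeds decay of short-lived messages, had a log2 fold change of 0.38 with no overlap of the genotypes but did not pass (limma adjusted p = 0.0586). It was named after its value was seen. In the fit lacking 1-13M, 5 of 28 rose and 1 fell.

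Upstream of the immediate early genes, 21 of 28 listed kinases and factors were tested, and 0 rose and 2 fell (3.71% and 3.52% of all tested genes), at a median of 0.03. Srf (0.12, limma adjusted p = 0.705), Creb1 (0.05, adjusted p = 0.805) and Elk4 (0.46, adjusted p = 0.209), which act at the promoters themselves, did not pass. The genes that fell were Map2k6 and Mapkapk2. Map2k6, which activates p38, had a log2 fold change of -1.23 (SE 0.31, limma adjusted p = 0.028), and Mapkapk2, a kinase activated by p38, had -0.61 (SE 0.16, adjusted p = 0.0307). Mapk14, p38 itself, had -0.05 (adjusted p = 0.824), Map2k3, which also activates it, had 0.08 (adjusted p = 0.772), and Rps6ka5, a kinase downstream, had -0.34 (adjusted p = 0.505). On Map2k6, WT mouse 1-13M read 366, within the D257A range of 209 to 486, while the other WT mice read 899 to 1249. For Map2k6, dropping any 1 of 2-17M, 2-25M and 2-30M from D257A, or of the WT mice other than 1-13M (1-12M, 2-3M, 2-32M and 3-18M), ended the call (adjusted p 0.0535 to 0.0745). For Mapkapk2 the same held of 2-17M, 2-21M, 2-25M and 2-30M from D257A and of 1-12M, 2-3M and 2-32M from WT (adjusted p 0.0565 to 0.0837). With 1-13M dropped, 1 of 21 rose and 3 fell.
Of 16 partners and repressors of the 10 proteins, 14 were tested, and 1 rose and 0 fell (3.71% and 3.52% of all tested genes), at a median of 0.05. The gene that rose was Tob2, of the antiproliferative family of Btg2, with a log2 fold change of 0.90 (SE 0.21, limma adjusted p = 0.0212) on its brightest probe set and 0.01 to 0.65 on 4 others, none of which passed. Dropping any 1 of 2-17M, 2-25M and 2-30M from D257A, or of 1-12M and 2-3M from WT, ended it (adjusted p 0.0515 to 0.0626). Nab1 (0.02, adjusted p = 0.953) and Nab2 (-0.08, adjusted p = 0.887), which hold Egr1 in check, did not pass. In that fit without 1-13M, 4 of 15 rose and 0 fell.
Of 16 textbook targets of AP-1 and Egr1, 8 were tested and 0 were called in either direction with limma, with 1 at an unadjusted p under 0.05 (Icam1, log2 fold change 0.93, adjusted p = 0.0591), and 0 by the methods' t-test. Leaving 1-13M out, 1 of 8 rose. Of 10 targets of p53, a factor that also drives Btg2 and Atf3, 8 were tested, and 1 rose and 1 fell (3.71% and 3.52% of all tested genes). Sesn1, which restrains mTORC1, read 11753 in 2-17M, 5881 in 2-21M, 7423 in 2-25M, 4216 in 2-27M and 12201 in 2-30M among D257A mice. WT mice read 1348 in 1-12M, 8348 in 1-13M, 874 in 2-3M, 1358 in 2-32M and 1140.4 in 3-18M. WT mouse 1-13M lay within the D257A range and the other WT mice below it, at a log2 fold change of 2.15 (SE 0.50, limma adjusted p = 0.0199). Of 3 dimmer Sesn1 probe sets, 2 also rose (2.19 and 1.92, adjusted p = 0.0239 and 0.0270). On the brightest one the call was lost when 2-17M or 2-30M from D257A, or 1-12M, 2-3M or 2-32M from WT, was left out (adjusted p 0.0504 to 0.0589). Phlda3, which inhibits Akt, had a log2 fold change of -0.51 with no overlap (SE 0.13, adjusted p = 0.0281), which was lost when 2-17M or 2-25M from D257A, or 1-12M, 2-3M or 2-32M from WT, was dropped (adjusted p 0.0565 to 0.0772). Cdkn1a, the best known of these targets, had 1.15 (adjusted p = 0.19). Lacking 1-13M, 2 of 8 rose and 1 fell. Of the 11 genes called over these lists, the methods' t-test called Klf10 and Klf6, and with each array centred on its median the calls of Hes1, Dusp1, Mapkapk2 and Phlda3 were lost (adjusted p 0.0695 to 0.0939). The block on the leading digit left the calls of Klf10 (adjusted p = 0.0201) and Sesn1 (adjusted p = 0.0319) and ended those of Klf6, Fosl2, Myc (0.0718), Hes1 (0.105), Dusp1 (0.256), Map2k6 (0.0521), Mapkapk2 (0.0711), Tob2 (0.120) and Phlda3 (0.0660). The fit of only the mice whose number starts with 2, with 2 WT mice among them, gave the same estimates as the block. It kept the calls of Klf10, Sesn1, Klf6 (limma adjusted p = 0.0390), Fosl2 (0.0388), Myc (0.0266), Map2k6 (0.0106), Mapkapk2 (0.0394) and Phlda3 (0.0324). It lost those of Hes1 (0.0749), Dusp1 (0.191) and Tob2 (0.0665).

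**Figure D5:**
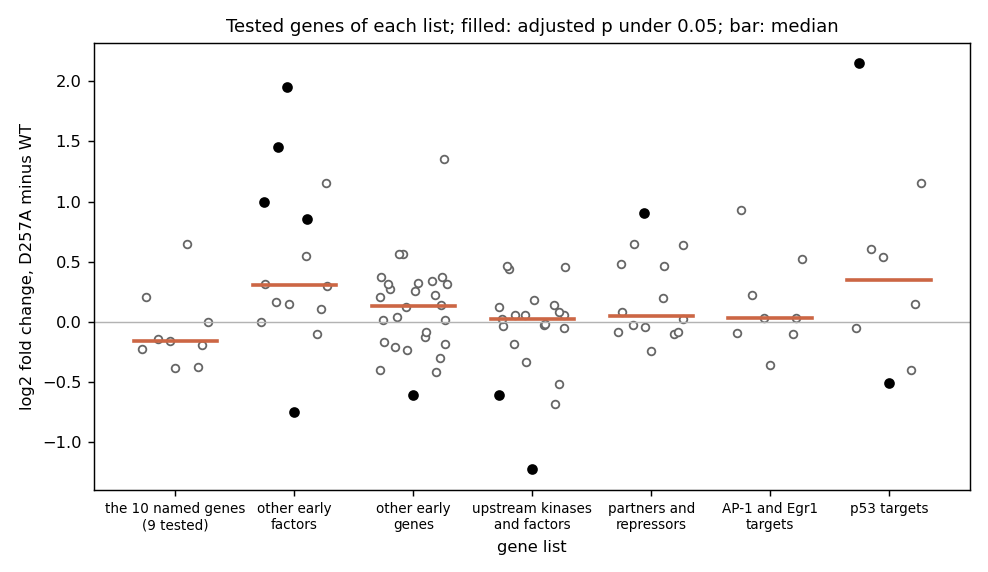
Log2 fold change of D257A minus WT (y axis) for each tested gene of 7 lists (x axis); filled points have an adjusted p under 0.05, and bars are list medians. None of the 9 tested named genes is filled, while the list of other early factors holds Klf10 at 1.96.

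Muscle fibre markers were bright in every mouse, their summed signal lying between 434027 and 468368 in D257A mice and between 379342 and 501789 in WT mice, with WT mouse 1-13M the lowest. Of 7 macrophage markers 3 rose and 0 fell, where 3.71% of all tested genes rose and 3.52% fell. Their summed signals were 7308 to 11341 in D257A mice and 6248 to 7803 in WT mice. Those that rose were Mrc1 (0.78, limma adjusted p = 0.00897), Cd163 (0.97, adjusted p = 0.0209) and Lyz2 (0.59, adjusted p = 0.042). The other macrophage markers, Cd68 (0.02, adjusted p = 0.949), C1qa (0.007, 0.988), Csf1r (0.20, 0.410) and Adgre1 (0.33, 0.247), did not pass. Of 6 fibroblast markers 3 fell and 0 rose, the collagen genes Col1a1, Col1a2 and Col3a1, with summed signals of 20754 to 24680 in D257A mice and 20819 to 34094 in WT mice, where 1-13M was the lowest WT mouse. The others, Dcn (-0.08), Pdgfra (-0.04) and Lum (-0.48), did not pass. Dcn alone averaged 18050 in D257A and 19137 in WT mice, within mean sums of 22084 and 28644. In the fit lacking 1-13M, 3 of 7 macrophage markers rose and 4 of 6 fibroblast markers fell. That fit also called 1 of 7 endothelial markers and 1 of 1 red cell markers higher. It called 1 of 5 smooth muscle markers and 1 of 4 adipocyte markers lower. With all 10 mice, endothelial markers did not pass on any of 7 genes (summed signals 3947 to 5007 and 4179 to 5054). Emcn had a log2 fold change of 0.43 with no overlap of the genotypes (limma adjusted p = 0.0527). With all 10 mice, limma made no call among markers of the cell types other than macrophages and fibroblasts. At an unadjusted p under 0.05 stood 0 of 8 for muscle fibres, 1 of 7 for endothelium and 2 of 5 for smooth muscle. The counts were 1 of 4 for adipocytes, 1 of 3 for neutrophils, 0 of 3 for Schwann cells and 2 of 4 for satellite cells. The single tested marker of T cells (1 of 1) and that of red cells (1 of 1) were also under 0.05. Over all tested genes, 22.8% had an unadjusted p under 0.05 with limma. Of the T cell markers, Cd3e, Cd3d, Cd3g and Cd2 were too dim to be tested. The summed neutrophil signal was 544 to 3246 for D257A against 286 to 813 for WT, and the adipocyte sum was 1576 to 3912 against 808 to 4883, lowest in 1-13M. The part of these markers in the values above was not tested. The log2 ratio of 3' to 5' control probe sets was -0.36 to -0.27 for D257A and -0.43 to -0.17 for WT. The median log2 signal of an array after scaling was lower in D257A (6.30 to 6.44, mean 6.36) than in WT (6.43 to 6.55, mean 6.49), with little overlap. The deposited trimmed mean of 1-13M was 129, the highest of the 10 arrays, where the next was 116. The part of these array measures in the values above was not tested.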

How the data were processed

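Gastrocnemius RNA of 5 D257A and 5 WT mice was measured on 10 arrays, 1 per mouse, so replicates are separate mice. The intensity values deposited by the authors are 1 linear signal per probe set and array, made with GCOS 1.3 per the labels' processing notes. No source used here names the algorithm behind the signal. The study states scaling to a target of 500, but the deposited trimmed means (2% left out at each end) were 93.4 to 106 in D257A mice and 94.5 to 129 in WT mice, so each array was multiplied to bring it to 500 and log2 was taken. Of 45101 probe sets, the 64 controls were left out, and the brighter 22518 of the rest by mean log2 signal (6.26 or more) entered the fit. This was limma (version 3.58.1, R version 4.3.3) on genotype alone, moderated by eBayes with a mean-variance trend, and p-values were adjusted over all of them after Benjamini-Hochberg. Calls are those with an adjusted p under 0.05. Platform annotation gave 1 gene symbol to 34945 probe sets, several to 932 and none to 9160, and 34741 of the first matched RefSeq by gene ID. Where several probe sets named a gene and no other, the brightest stood for it.

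Exact 2-sided permutation of the mice gave a further p for single genes, and correlations were tested by 100000 permutations or, with fewer mice or genotype means removed, all of them (Python 3.11.15, SciPy 1.17.1). The fit was tested on simulated data. The members, lists and tests were chosen with earlier results of these data known. Genes named were the 10 members, up to 4 called genes of each other list by adjusted p, the 5 genes most like the members' mean, and called cell type markers, plus Hes1 as the fifth call of its list and genes named as failing the test, which were picked after their values were seen. Alternatives were other scalings, filters, variance models and an offset of 32, the methods' t-test, the mice whose number starts with 2 (what the digit stands for is not stated), that digit as a block, and each mouse left out in turn. The number of mice limits the precision. Promoter windows are RefSeq, GRCm38.p6.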

Additional observations from a re-analysis of the deposited data

Results flagged for a closer look

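In 46 groups of 5 mice, made in each genotype of the 13 probe sets of the 10 genes and of 10 called genes of the other lists, 3 groups held a mouse far from the others, where chance gives about 1 in 20. The gaps below were taken on log2 signal, while the signals printed beside them are linear. On the dimmer Btg2 probe set, D257A mouse 2-27M was low at 216, with a gap of 0.823 of the group's range. On Sesn1, WT mouse 1-13M was high at 8348, with a gap of 0.805. On Map2k6, WT mouse 1-13M was low at 366, with a gap of 0.732.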

How the results depend on the processing

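The count of immediate early genes called was 0 of 9, and 0 or 1 without a single mouse. It was 1, that of Egr1, with array weights, with the mice whose number starts with 2, with that digit as a block and without WT mouse 3-18M, and 0 when every probe set was counted. The 1662 calls over all probe sets became 3968 with array weights, 1033 with the methods' t-test and 562 with the block. They were 1765 with only the mice whose number starts with 2. Without a single mouse they were 894 to 3439, the highest without WT mouse 1-13M. The 11 calls among the other listed genes became 5 without the variance trend, 22 with array weights, 2 with the methods' t-test and 2 with the block. With only the mice whose number starts with 2 they were 16. Without a single mouse they were 4 to 24, the highest again without WT mouse 1-13M. Centring each array on its median moved the split of calls over all probe sets from 819 higher and 843 lower to 1599 and 418, and the deposited signals without scaling moved it to 356 and 856. They moved the median log2 fold change of all tested probe sets from -0.03 to 0.10 and to -0.10. Several estimates changed sign without a call, among them those of Fos and Atf3, at -0.38 each before any change of setting. With the mice whose number starts with 2, and equally with that digit as a block, Fos became 0.12, Fosb -0.33, Jun 0.035, Junb 0.18, Atf3 0.14 and Ier2 0.025. With array weights Fosb became -0.066, Jun 0.016 and Atf3 0.13. Jun became 0.13 with median centring. Averaging the probe sets of a gene gave 0.035 for Jun, 0.047 for Jund and -0.15 for Btg2. The Jund value takes in its dimmer probe set, which was too dim to be tested and gave 0.25 without the filter, against -0.16 on the tested one. Without a single mouse, the estimates ran from -0.24 to 0.52 for Fosb, from -0.13 to 0.14 for Jun, from -0.65 to 0.11 for Atf3 and from -0.25 to 0.015 for Ier2. The cause of these changes was not tested. No paired analysis was possible because the labels give each mouse its own number and no number that genotypes share.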
